A study of Mus musculus with 16 samples.

Results

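The 10 genes described here encode collagen IV and laminin chains of the basement membrane, Col4a1, Col4a2, Col4a3, Col4a4, Col4a5, Lama2, Lama4, Lamb1, Lamb2 and Lamc1. They were chosen by name, and they are 10 of 22372 genes measured in ventricle RNA from 16 C57BL/6J mice. The mice, which the study describes as male, were 10 to 12 weeks old at the start, and there were 4 in each group. Sham-Veh mice had a sham operation and vehicle, Sham-THZ1 mice a sham operation and THZ1, TAC-Veh mice transverse aortic constriction (TAC) and vehicle, and TAC-THZ1 mice TAC and THZ1. TAC narrows the aortic arch with a suture and loads the left ventricle with pressure. THZ1 is a covalent inhibitor of the transcription kinases CDK7, CDK12 and CDK13, and it was injected intraperitoneally between postoperative days 1 and 60. By the sample labels each dose was 10 mg/kg, and 2 doses were given per day. The study describes daily injections and gives the dose per day. The drug reached the whole animal, so no cell type was targeted, and each library came from a small piece of ventricle with all of its cell types.

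The basement membrane is the thin sheet of matrix that wraps each cardiomyocyte and underlies the endothelium of each vessel. Collagen IV chains assemble in the endoplasmic reticulum into trimers, which are secreted and joined into a network. The α1 and α2 chains, from Col4a1 and Col4a2, form the trimer found in nearly all basement membranes, while the α3, α4 and α5 chains, from Col4a3, Col4a4 and Col4a5, form the trimer best known from the kidney glomerulus and mutated in Alport syndrome. Laminins are cross-shaped trimers of an α, a β and a γ chain. Lama2 encodes the α chain of the laminins around muscle fibres, whose loss causes a congenital muscular dystrophy, and Lama4 an α chain of vessel walls. Lamb1 and Lamb2 encode alternative β chains and Lamc1 the γ chain that nearly all laminins share. Integrins and dystroglycan on the cell surface bind laminin, and nidogens and perlecan link the laminin and collagen IV networks.

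Col4a1 and Col4a2 lie head to head on mouse chromosome 8. In the mm9 build that the files use, with the GENCODE annotation, Col4a1 spans chr8:11198423-11312826 on the minus strand and Col4a2 chr8:11312805-11449287 on the plus strand, so that the annotated genes overlap by 22 bases. Col4a4 (chr1:82447298-82583424, minus strand) and Col4a3 (chr1:82583496-82718634, plus strand) are arranged in the same way with 71 bases between them. Col4a5 lies at chrX:137909928-138123778 (plus), Lama2 at chr10:26701094-27336748 (minus), Lama4 at chr10:38685321-38829994 (plus), Lamb1 at chr12:31950099-32014509 (plus), Lamb2 at chr9:108382193-108392861 (plus) and Lamc1 at chr1:155066052-155179916 (minus). Each value below is a sum over the exons of the gene, and reads were counted by strand, which separates the genes of each head-to-head pair.

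The promoter windows of Col4a1, Col4a2 and Col4a4 are shown because the genes of each divergent pair were called together, and in the same direction, in every comparison in which either of them was called. They are RefSeq sequences of the GRCm38.p6 build, a later build than that of the files, and run from 250 bases before to 50 bases after the gene start, 5′ to 3′ on the strand of the gene. Capitals mark GC boxes (GGGCGG) and CCAAT boxes (CCAAT), searched on both strands, so that CCGCCC and ATTGG are the same motifs read from the other strand, and no match of one overlaps a match of the other. The windows are chr8:11312777-11313076 for Col4a1, chr8:11312555-11312854 for Col4a2 and chr1:82586800-82587099 for Col4a4.
Col4a1: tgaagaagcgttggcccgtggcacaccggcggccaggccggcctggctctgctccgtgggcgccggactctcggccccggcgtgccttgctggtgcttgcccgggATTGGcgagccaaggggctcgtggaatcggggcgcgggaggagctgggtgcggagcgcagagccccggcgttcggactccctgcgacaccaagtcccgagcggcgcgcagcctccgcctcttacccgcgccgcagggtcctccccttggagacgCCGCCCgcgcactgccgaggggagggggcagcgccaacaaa
Col4a2: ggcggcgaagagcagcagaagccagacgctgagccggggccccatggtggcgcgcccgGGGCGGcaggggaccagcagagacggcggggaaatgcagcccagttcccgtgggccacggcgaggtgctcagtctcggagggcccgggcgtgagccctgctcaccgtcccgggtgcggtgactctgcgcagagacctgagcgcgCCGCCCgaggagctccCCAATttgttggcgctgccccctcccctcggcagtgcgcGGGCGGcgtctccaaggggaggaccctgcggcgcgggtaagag
Col4a4: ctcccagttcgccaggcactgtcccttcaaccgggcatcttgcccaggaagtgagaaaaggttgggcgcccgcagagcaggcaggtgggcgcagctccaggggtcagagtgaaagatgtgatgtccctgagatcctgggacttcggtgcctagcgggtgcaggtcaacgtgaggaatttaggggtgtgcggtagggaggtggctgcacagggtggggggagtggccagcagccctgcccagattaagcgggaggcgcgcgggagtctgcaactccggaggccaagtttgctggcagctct
The Col4a1 and Col4a2 windows share 78 bases, chr8:11312777-11312854, and the shared stretch holds 1 GC box, which is thus counted in both genes. The Col4a1 window had 1 GC box and 1 CCAAT box, the Col4a2 window 3 GC boxes and 1 CCAAT box, and the Col4a4 window none of either. Of 27018 mouse promoter windows of this length, 35.9% held a GC box and 37.9% a CCAAT box. G and C made up 74.0% of the Col4a1 window and 73.7% of the Col4a2 window, against a median of 52.7% over all windows. In total, 7 of the 10 genes had a window, and none of the 7 held a TATA box (TATAAA, in 14.2% of all windows) or an AP-1 motif (TGANTCA, in 7.94%).

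The libraries held 21.4 M to 35.8 M reads in protein-coding genes, and 33.2 to 44.7% of these reads were mitochondrial. Cardiomyocyte markers summed to at least 950740 normalized counts in every library, while lung epithelial markers summed to at most 2.44, skeletal muscle markers to at most 46.0 and atrial markers to at most 82.3. Cardiomyocyte markers were thus abundant, and those of lung epithelium, skeletal muscle and atrium were low beside them. Erythroid markers summed to 6419 to 6995 in Sham-Veh, 5688 to 10160 in Sham-THZ1, 7762 to 13462 in TAC-Veh and 7124 to 31240 in TAC-THZ1 libraries. The TAC-Veh libraries differed most among themselves, with a median SD of 0.22 on the log2 scale over all genes tested, against 0.10 in Sham-Veh, 0.09 in Sham-THZ1 and 0.14 in TAC-THZ1. The replicates were separate mice.

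In TAC-Veh hearts 4 of the 5 collagen IV genes described here were called higher than in Sham-Veh, Col4a3 and Col4a4 by the most, and Col4a5 was not called. Col4a3, one chain of the α3α4α5 trimer, stood at 216, 154, 166 and 164 normalized counts in the 4 Sham-Veh mice and at 513, 656, 363 and 591 in the 4 TAC-Veh mice. All TAC-Veh mice lay above all Sham-Veh mice, and the mean was 3.03 times as high (log2 fold change 1.57, SE 0.21, adjusted p = 2.82e-05). Here and below, fold changes and adjusted p values are from limma on log2(normalized count + 1) over 13331 genes and all 16 libraries, and a gene was called at an adjusted p under 0.05. All 10 chain genes passed the filter on low counts. Col4a4, its neighbour and partner chain, was at 259.9, 230.2, 204 and 203 in Sham-Veh and at 399, 558, 359 and 603 in TAC-Veh, again without overlap (log2 fold change 1.07, SE 0.19, adjusted p = 3.41e-04). In a piece of tissue, more cells that express a gene and more RNA per cell cannot be told apart, and the same holds for every lower value below.

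Col4a1 and Col4a2, the chains of the common trimer, rose less and with more spread. Col4a1 was at 11785, 9405, 8735 and 12539 normalized counts in Sham-Veh and at 15978, 18561, 9537 and 19706 in TAC-Veh. Of the TAC-Veh mice, 3 lay above all Sham-Veh mice, and TAC-Veh replicate 3 lay inside the Sham-Veh range. The difference was 0.55 (SE 0.18, adjusted p = 0.0183) on the log2 scale. Col4a2 was at 9004, 7692, 7460.4 and 10127 in Sham-Veh and at 11601, 13332, 7344 and 15346 in TAC-Veh, where replicate 3 was below every sham mouse (log2 fold change 0.43, SE 0.16, adjusted p = 0.0383). These calls were the least firm of the 4. With Sham-Veh and TAC-Veh fitted alone, the adjusted p was 0.0728 for Col4a1 and 0.122 for Col4a2. The Col4a1 call was lost without Sham-Veh replicate 2 or 3 or TAC-Veh replicate 2 or 4 (adjusted p up to 0.0631), and the Col4a2 call without any of these or without replicate 1 of either group (adjusted p up to 0.126).

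Col4a5, the remaining collagen IV chain of the 10 genes, was at 1263, 1347, 1281 and 1326 in Sham-Veh and at 1446, 1882, 1172 and 1573 in TAC-Veh. Its log2 fold change of 0.20 (SE 0.12) was not called (adjusted p = 0.206), while without TAC-Veh replicate 3 it was 0.32 with an adjusted p of 0.0326. In total, 4 of the 10 chain genes were called higher with constriction, all of them collagen IV, where 21.4% of all genes tested were called higher. Col4a3 and Col4a4 also passed the study's threshold of a log2 fold change of 1. Of all genes tested, 4.64% were called higher and passed it. For both genes the groups did not overlap, which held in this direction for 18.2% of all genes.

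**Figure D1:**
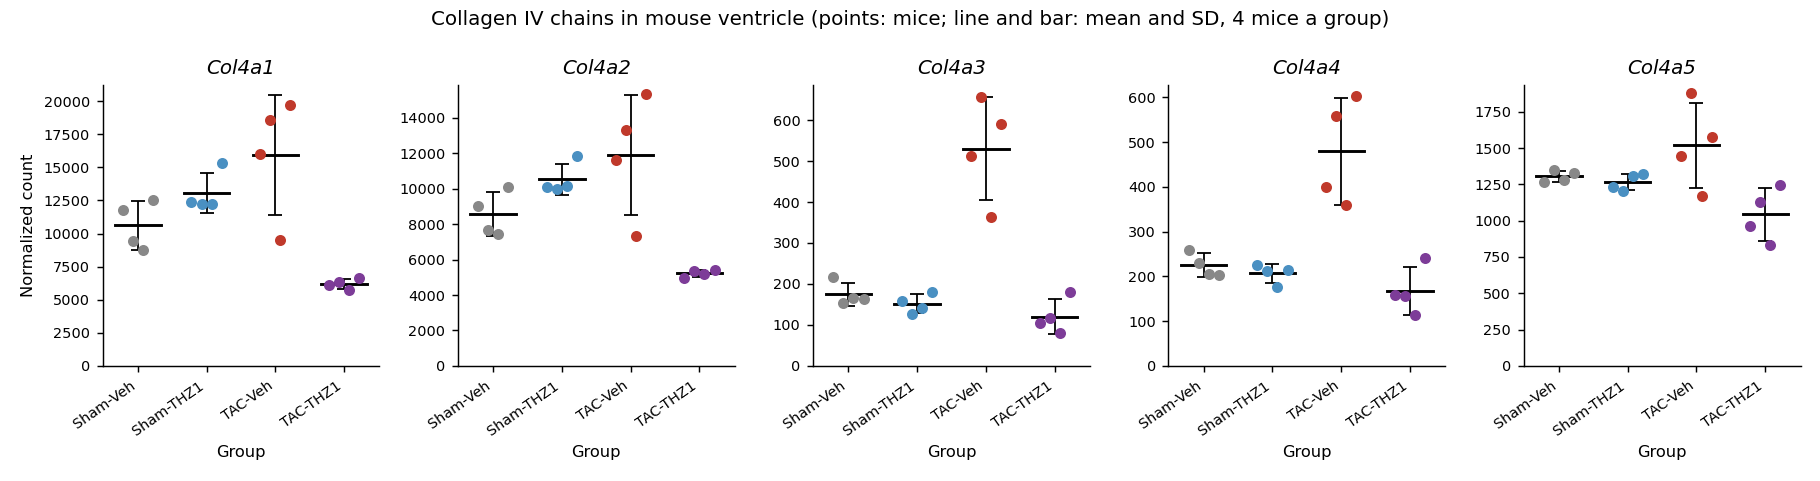
Normalized counts (y axis, from 0) of the 5 collagen IV genes in each mouse, by group (x axis). Points are mice, and lines with bars are means and SD of 4 mice; the TAC-THZ1 mice lay below every other mouse for Col4a1 and Col4a2, and the TAC-Veh mice lay above every other mouse for Col4a3 and Col4a4.

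In constricted hearts given THZ1, all 5 collagen IV chains described here were lower than with vehicle. Col4a1 was at 6129, 6358, 5719.7 and 6639 normalized counts in the 4 TAC-THZ1 mice, a range that ended below the lowest TAC-Veh mouse. Its mean was 0.390 times that of TAC-Veh (log2 fold change -1.31, SE 0.18, adjusted p = 1.36e-04). Col4a2 was at 4968, 5353, 5177 and 5395, also without overlap (log2 fold change -1.14, SE 0.16, adjusted p = 1.98e-04). The TAC-THZ1 mice were close to each other, with a coefficient of variation of 6.26% for Col4a1 and 3.73% for Col4a2, against 28.5% and 28.6% in TAC-Veh.

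Col4a3 had the largest difference of the 10 genes, at 104, 116, 80.6 and 181 normalized counts in TAC-THZ1 (log2 fold change -2.16, SE 0.21, adjusted p = 2.55e-05). Col4a4 was at 158, 157, 115 and 241 (log2 fold change -1.53, SE 0.19, adjusted p = 8.23e-05). For both genes every TAC-THZ1 mouse was below every TAC-Veh mouse, and replicate 4 was the highest of its group. Col4a5 was at 965, 1128, 832 and 1248, where replicate 4 overlapped with TAC-Veh (log2 fold change -0.54, SE 0.12, adjusted p = 0.00459). With the TAC groups fitted alone, the adjusted p for Col4a5 was 0.0593.

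The laminin chains did not follow collagen IV in TAC-Veh. Both β chains were lower, and the α and γ chains were not called. Lamb2, a β chain best known from the neuromuscular junction and the glomerulus, was at 8681, 9286, 9058 and 9477 normalized counts in Sham-Veh and at 6691, 7106, 6071 and 8762 in TAC-Veh (log2 fold change -0.36, SE 0.09, adjusted p = 0.00256). Lamb1, the more widespread β chain, was at 3159, 3008, 3288 and 3149 in Sham-Veh and at 2110.4, 2487, 2173 and 3329.7 in TAC-Veh (log2 fold change -0.34, SE 0.10, adjusted p = 0.0119). For both genes 3 TAC-Veh mice were below every sham mouse, and replicate 4 was inside or above the sham range. With Sham-Veh and TAC-Veh fitted alone the adjusted p for Lamb1 was 0.0635. Thus 2 of the 10 chain genes were called lower, where 23.6% of all genes tested were. Lama4 was at 2676, 2588, 2811 and 2669 in Sham-Veh and at 1544, 2810.1, 1969 and 2727 in TAC-Veh, so that 2 mice lay far below sham and 2 within or near its range (log2 fold change -0.29, SE 0.13, adjusted p = 0.0875). Without TAC-Veh replicate 2 or 4 the Lama4 difference was called (adjusted p = 0.0172 and 0.0202).

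Lama2 and Lamc1 were not called with constriction and were lower under THZ1 in constricted hearts. Lama2 was at 3272, 3279, 3337 and 2984 in Sham-Veh, at 3227, 3717, 2849 and 3819 in TAC-Veh (log2 fold change 0.07, 95% interval -0.10 to 0.25, adjusted p = 0.506) and at 2276, 2583, 2148 and 2519 in TAC-THZ1. The TAC-THZ1 mice were below all mice of the other 3 groups. The log2 fold change against TAC-Veh was -0.51 (SE 0.08, adjusted p = 5.05e-04). Lamc1 was at 5462, 5771, 5643 and 5295 in Sham-Veh, at 5516, 6656, 4949 and 7097 in TAC-Veh (log2 fold change 0.11, 95% interval -0.08 to 0.30, adjusted p = 0.321) and at 4238, 3903, 4379 and 4017 in TAC-THZ1. These mice too were below all others (log2 fold change against TAC-Veh -0.54, SE 0.09, adjusted p = 5.49e-04). Without TAC-Veh replicate 3, the lowest of its group, Lamc1 was called higher with constriction (log2 fold change 0.21, adjusted p = 0.0398).

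The β chains and Lama4 showed no called difference between TAC-THZ1 and TAC-Veh. Lamb2 was at 7179, 7335, 7139.6 and 6463 in TAC-THZ1, and the 95% interval of its log2 fold change was -0.19 to 0.17 (adjusted p = 0.915). Lamb1 was at 2264, 2199.8, 2294 and 2287 (95% interval -0.35 to 0.08, adjusted p = 0.341). Lama4 was at 1906, 1834, 2006 and 1924 (95% interval -0.48 to 0.08, adjusted p = 0.282), and without TAC-Veh replicate 1, its lowest value, the log2 fold change was -0.37 with an adjusted p of 0.00778. In total, 7 of the 10 chain genes were called lower and 3 were not called, where 14.2% of all genes tested were called lower and 15.1% higher. Of these, 4 passed the study's threshold of 0.89 on the log2 scale, where 3.62% of all genes tested were called lower and passed it. For 6 of the 10, all but Col4a5 and the 3 not called, every TAC-THZ1 mouse was below every TAC-Veh mouse, which held for 10.5% of all genes. Both comparisons contain the TAC-Veh libraries, so their values are not independent of each other.

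**Figure D2:**
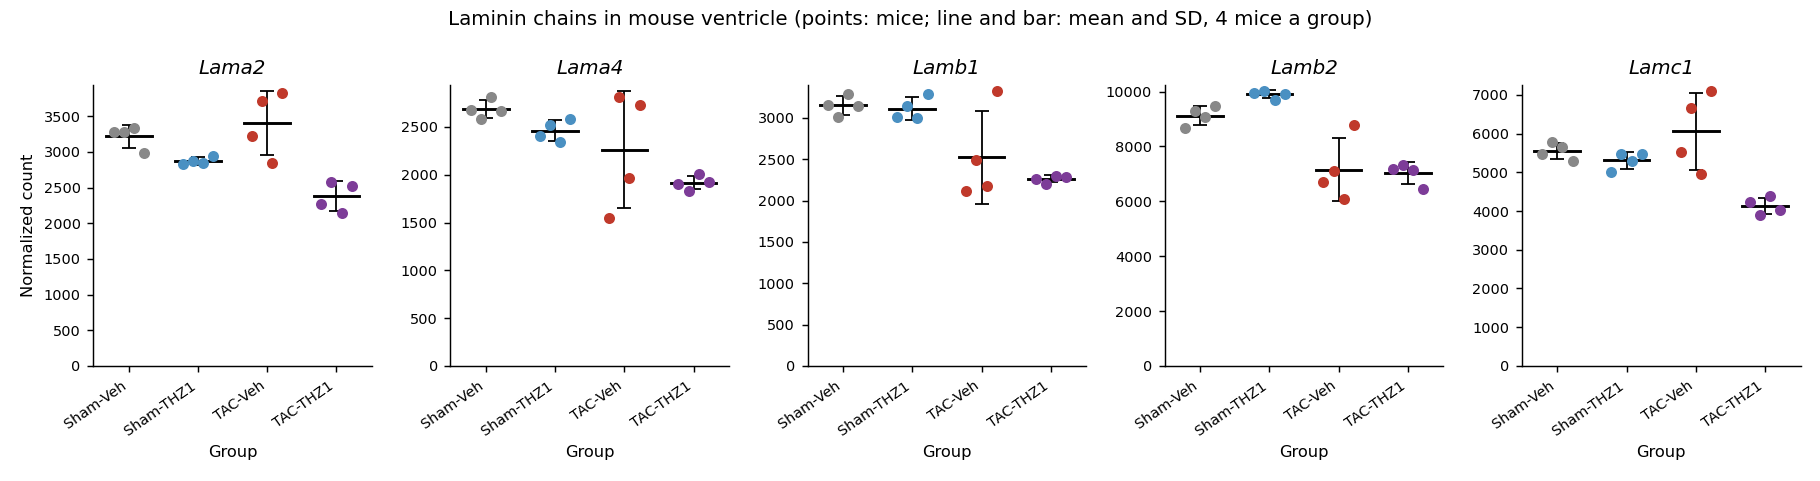
Normalized counts (y axis, from 0) of the 5 laminin genes in each mouse, by group (x axis). Points are mice, and lines with bars are means and SD of 4 mice; for Lama2 and Lamc1 the TAC-THZ1 mice were below all others, and for Lamb1 and Lamb2 all TAC-THZ1 mice and 3 of 4 TAC-Veh mice were below both sham groups.

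In sham-operated hearts THZ1 made no called difference to any of the 10 genes by limma, DESeq2 or edgeR, and none had an unadjusted limma p under 0.05, where 0.0675% of all genes tested were called. The largest estimates were those of Col4a1 and Col4a2, which were positive where those in constricted hearts were negative. Col4a1 was at 12406, 12258, 12222 and 15353 in Sham-THZ1 (log2 fold change 0.31, 95% interval -0.07 to 0.68, adjusted p = 0.792) and Col4a2 at 10086, 10007, 10175 and 11845 (log2 fold change 0.30, 95% interval -0.04 to 0.65, adjusted p = 0.771). Replicate 4 was the highest in both. The groups did not overlap for Lama2 (2827 to 2945 in Sham-THZ1) and Lama4 (2341 to 2586), which were lower with THZ1, and for Lamb2 (9703 to 10029.5), which was higher. Non-overlap in sham hearts held for 5.05% of all genes downwards and 6.29% upwards. With the sham groups fitted alone, Lama2 was called (log2 fold change -0.16, adjusted p = 0.0404).

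The effect of THZ1 differed between constricted and sham hearts for 5 of the 10 genes, all in the direction of a lower value in constricted hearts, where the interaction was called in this direction for 5.62% of all genes. The difference of log2 fold changes was -1.95 (SE 0.30, adjusted p = 0.00225) for Col4a3, -1.62 (SE 0.25, adjusted p = 0.00225) for Col4a1, -1.44 (SE 0.23, adjusted p = 0.00226) for Col4a2 and -1.41 (SE 0.27, adjusted p = 0.00641) for Col4a4. Lamc1 was the only laminin chain called, at -0.48 (SE 0.13, adjusted p = 0.0274), and this call was lost without Sham-Veh replicate 4, Sham-THZ1 replicate 2 or 4, TAC-Veh replicate 2 or TAC-THZ1 replicate 2 (adjusted p up to 0.0597) and with quantile normalization (0.0570). Lama2 (-0.35, adjusted p = 0.0712) and Col4a5 (-0.49, adjusted p = 0.0814) were not called, though both were without TAC-Veh replicate 3 (0.00913 and 0.0131), and so were Col4a5 without TAC-THZ1 replicate 4 (0.0457) and Lama2 by DESeq2 (0.0404).

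Under THZ1, constriction was accompanied by lower and not higher values. Relative to Sham-THZ1, TAC-THZ1 hearts had 0.476 times the Col4a1 (log2 fold change -1.07, SE 0.18, adjusted p = 0.00118) and 0.496 times the Col4a2 (-1.01, SE 0.16, adjusted p = 0.00102). Among the laminins, Lamb2 (-0.50, adjusted p = 0.00148), Lamb1 (-0.46, adjusted p = 0.00542), Lamc1 (-0.36, adjusted p = 0.00941) and Lama2 (-0.27, adjusted p = 0.0266) were lower. The Lama2 call was lost without any 1 of the Sham-THZ1 mice or without TAC-THZ1 replicate 1 or 3 (adjusted p up to 0.0811). Thus 6 of the 10 were called lower, where 12.8% of all genes tested were. Only Col4a1 and Col4a2 were lower by at least 1 on the log2 scale. Of all genes tested, 0.863% were called and lower by at least that much. Every TAC-THZ1 mouse was below every Sham-THZ1 mouse for Col4a1, Col4a2 and all 5 laminins, which held for 17.7% of all genes. Lama4 (-0.36, adjusted p = 0.0584), Col4a5 (-0.30, adjusted p = 0.0924), Col4a3 (-0.38, adjusted p = 0.205) and Col4a4 (-0.35, adjusted p = 0.199) were not called. Without TAC-THZ1 replicate 4, the highest of its group for the 3 collagen chains, Col4a3 (adjusted p = 0.0407), Col4a4 (0.0425) and Col4a5 (0.0422) were called lower as well, and Lama4 was called without TAC-Veh replicate 1, 2 or 4, by DESeq2, with array weights and with the 2 THZ1 groups fitted alone. Col4a5 was also called without TAC-Veh replicate 3 (0.0496). The TAC-Veh mice are not in this comparison and enter only through the variance fitted to all libraries. Without any of them the estimates stayed at -0.36 for Lama4 and -0.30 for Col4a5.

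TAC-THZ1 hearts can also be set beside Sham-Veh hearts, the healthy untreated mice, as a description with no test. All 4 TAC-THZ1 mice were below all 4 Sham-Veh mice for 8 of the 10 genes, the exceptions being Col4a3 and Col4a4, and 16.1% of all genes tested were without overlap in this direction. The ratio of the means ran from 0.585 for Col4a1 and 0.609 for Col4a2 to 0.800 for Col4a5, with Lamc1 at 0.746, Lama2 at 0.740 and Lama4 at 0.714.

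**Figure D3:**
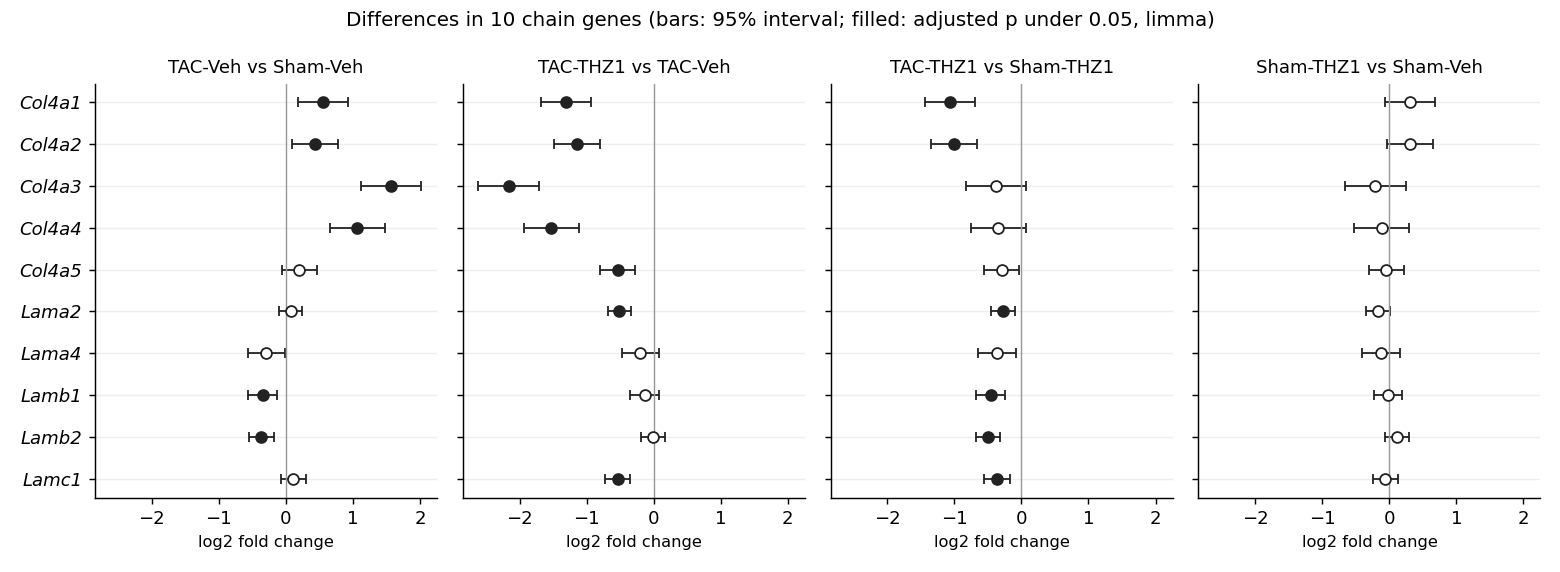
Log2 fold changes (x axis) of the 10 chain genes (y axis) in 4 comparisons. Points are limma estimates, bars are 95% intervals, and filled points have an adjusted p under 0.05; the collagen IV chains lie right of 0 with constriction under vehicle and left of 0 with THZ1 in constricted hearts, and no point is filled for THZ1 in sham hearts.

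Levels of the 10 genes were compared with each other only per kilobase of exon. The highest mean of a list and the weight of a marker in a sum, given below, are in normalized counts not divided by length. The length was that of all annotated exons of a gene, merged over its transcripts. It was 9917 bases for Lamb1, 5624 for Lamb2, 9728 for Lama2 and 12068 for Lama4. The transcripts in the tissue may be shorter, so the order of genes, the shares and the ratios per length depend on the annotation. In Sham-Veh hearts Lamb2 (1623 ± 60.8 normalized counts per kb, SD, n = 4), Col4a1 (1557 ± 269) and Col4a2 (1295 ± 187) were the most abundant of the 10, and the ranges of Lamb2 and Col4a1 overlapped, as did those of Col4a1 and Col4a2. Lamc1 followed at 670.04 ± 25.1, then Lama2 (331 ± 16.3) and Lamb1 (318 ± 11.5), which overlapped, then Lama4 (223 ± 7.65) and Col4a5 (194 ± 5.75). Col4a4 (27.0 ± 3.21) and Col4a3 (17.6 ± 2.81) were far below. Col4a1 had a higher level per kb than 96.1% of the genes tested and Col4a3 than 17.4%. In TAC-Veh Col4a1 had the highest mean of the 10, at 2339 ± 667, and in TAC-THZ1 Lamb2 was, at 1250 ± 68.8, with Col4a1 at 911 ± 57.0.

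The summed level per kb of the collagen IV genes described here, which leaves out Col4a6, reached 3091 ± 455 for Sham-Veh and 3735 ± 366 for Sham-THZ1 hearts. It was 4474 ± 1239 in TAC-Veh hearts and 1888 ± 115 in TAC-THZ1 hearts (SD, n = 4). Col4a1 made up 50.2% of this sum in Sham-Veh, 52.1% in TAC-Veh and 48.3% in TAC-THZ1, and Col4a2 41.9%, 40.2% and 41.9%. Col4a3 and Col4a4 each held a small share, with Col4a3 at 0.574% in Sham-Veh, 1.21% in TAC-Veh and 0.632% in TAC-THZ1. Col4a5 held 6.38 ± 0.956% in Sham-Veh, 5.21 ± 0.895% in TAC-Veh and 8.18 ± 0.949% in TAC-THZ1.

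**Figure D4:**
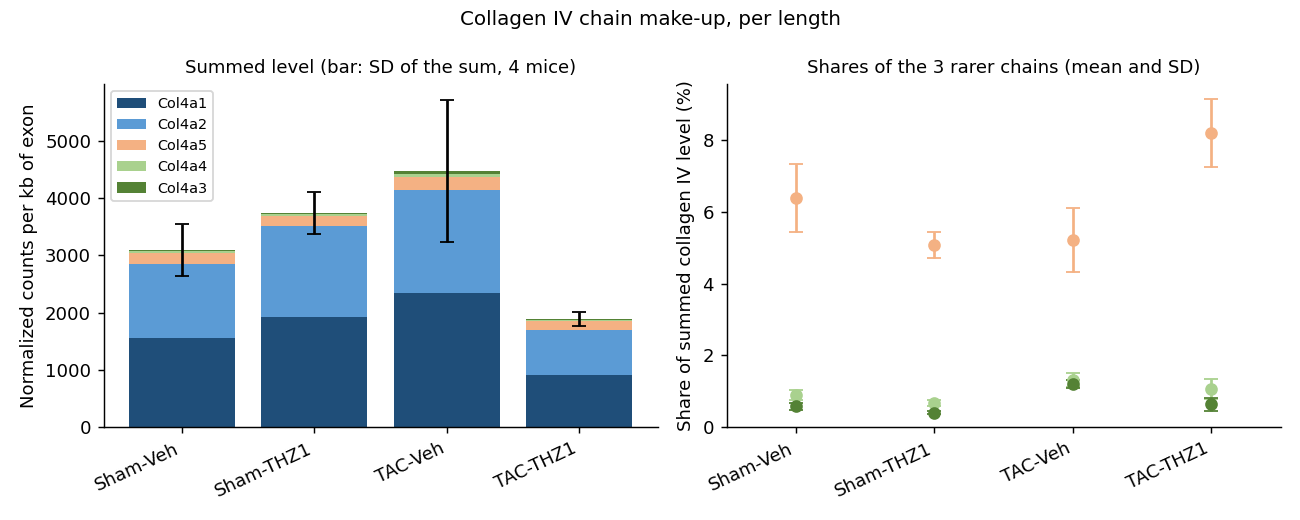
Left, the summed level per kb of exon of the collagen IV genes described here (y axis) by group (x axis), stacked by chain, with the SD of the sum over 4 mice. Right, the percent share of the 3 rarer chains (y axis), as mean and SD of 4 mice; the sum was lowest in TAC-THZ1, where the Col4a5 share was highest.

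Ratios within a library do not depend on how the library was scaled. The Col4a1 to Col4a2 ratio was 1.20 ± 0.0553 per length in Sham-Veh, 1.30 ± 0.0530 in TAC-Veh and 1.15 ± 0.0583 in TAC-THZ1. It was lower in all TAC-THZ1 mice than in all TAC-Veh mice, by 0.17 on the log2 scale, and the exact two-sided permutation test gave 0.0286, the smallest p that 4 against 4 mice can give, or 0.0762 after Benjamini-Hochberg adjustment over 8 ratio comparisons. The Col4a5 to Col4a1 ratio was higher in all TAC-THZ1 mice than in all TAC-Veh mice, by 0.77 (exact permutation p = 0.0286, adjusted 0.0762). The Lama4 to Lama2 ratio was lower in all TAC-Veh mice than in all Sham-Veh mice, with a difference of -0.36 (exact permutation p = 0.0286, adjusted 0.0762). The other 5 comparisons had exact p values of 0.0857 to 0.800, and none of the 8 passed after adjustment. The Lamb1 to Lamb2 ratio was 0.196 ± 0.0117 in Sham-Veh and 0.199 ± 0.0152 in TAC-Veh per length (exact permutation p = 0.800), while both genes were lower in TAC-Veh.

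Of the other collagen IV and laminin chains, 6 of 7 passed the filter, Lama1 being the exception. With constriction 1 was called higher and 2 lower, at a list median of -0.31 on the log2 scale against -0.0030 over all genes. Of all genes tested, 21.4% were called higher and 23.6% lower. Lamb3, a β chain of epithelial laminin (-1.32, adjusted p = 1.52e-04), and the vascular α chain Lama5 (-0.90, adjusted p = 7.40e-05) fell. Lama5 had the highest mean of the list. With THZ1 in constricted hearts 2 were called higher and 1 lower, beside 15.1% and 14.2% of all genes tested. The 2 higher were Lamb3 at 0.70 (adjusted p = 0.0226) and Lama5 at 0.39 (adjusted p = 0.0414).

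Of 25 other basement membrane components 24 passed the filter. With constriction 7 were called higher and 6 lower, at a list median of 0.08, beside 21.4% higher and 23.6% lower of all genes tested. Frem1, a component of embryonic and epithelial basement membranes, passed the filter only through TAC-Veh, so its difference is given as a description. It was at 2.30 to 7.07 normalized counts in Sham-Veh, 2.39 to 6.91 in Sham-THZ1, 45.6 to 202 in TAC-Veh and 2.55 to 10.9 in TAC-THZ1 hearts. Without it, 6 of 23 were called higher and 6 lower with constriction, at a list median of 0.06. Of these, Sparc, which binds collagen IV (1.43, adjusted p = 1.44e-05), and fibulin Fbln2 (1.33, adjusted p = 1.27e-06) rose most. The largest falls were those of Egflam, the dystroglycan ligand pikachurin (-1.41, adjusted p = 7.00e-06), hemicentin Hmcn2 (-1.10, adjusted p = 0.0194) and Frem2 (-0.88, adjusted p = 0.00438). Sparc had the highest mean. With THZ1 in constricted hearts 12 were lower and 1, Egflam (0.49, adjusted p = 0.0338), was higher, at a list median of -0.46 against 0.01 over all genes. Of all genes tested, 14.2% were called lower and 15.1% higher. Without Frem1, 11 of 23 were lower, at a list median of -0.43. Of these, Sparc (-1.62, adjusted p = 4.50e-05) and Col15a1, a collagen of the outer face of the basement membrane (-1.47, adjusted p = 1.39e-04), fell most. Relative to Sham-THZ1, TAC-THZ1 hearts had 11 of the 24 lower and 1 higher, at a list median of -0.44 against 0.00 over all genes. Of all 13331 genes tested, 1706 were called lower and 1514 higher.

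The enzymes and chaperones that hydroxylate, fold and export collagen moved with fewer exceptions. Of 18 analysed, 15 were called higher with constriction and 3 were not called, at a list median of 0.52, where 21.4% of all genes tested were called higher. The prolyl hydroxylase P4ha3 passed the filter only through TAC-Veh and is likewise given as a description. It was at 0 to 5.30 normalized counts in Sham-Veh, 0 to 4.32 in Sham-THZ1, 12.9 to 62.2 in TAC-Veh and 1.27 to 8.95 in TAC-THZ1 hearts. Without it, 14 of 17 were called higher, at a list median of 0.49. Of these, the prolyl hydroxylases Leprel1 (1.62, adjusted p = 2.00e-06) and Leprel2 (1.16, adjusted p = 7.03e-06) rose most, and P4hb, the protein disulfide isomerase with the highest mean of the list, rose by 0.40 (adjusted p = 5.61e-04). With THZ1 in constricted hearts 15 of the 18 were lower and 3 were not called, at a list median of -0.41, where 14.2% of all genes tested were called lower. Without P4ha3, 14 of 17 were lower, at a list median of -0.40. Of these, Leprel1 (-1.21, adjusted p = 1.42e-04) and the lysyl hydroxylase Plod2 (-0.95, adjusted p = 3.91e-04) fell most. P4hb fell by 0.41 on the log2 scale (adjusted p = 0.00114). Relative to Sham-THZ1, 3 were higher and 2 lower, at a list median of 0.02, beside 1514 higher and 1706 lower of all 13331 genes tested. These genes also serve other collagens.

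Of 22 receptors of laminin and collagen IV 21 passed the filter. With constriction 3 were called higher and 9 lower, at a list median of -0.16, beside 21.4% higher and 23.6% lower of all genes tested. Sarcoglycan Sgcd (0.55, adjusted p = 0.0165), integrin β1 (Itgb1, 0.28, adjusted p = 0.00913), which had the highest mean, and the collagen receptor Ddr1 (0.22, adjusted p = 0.0238) rose. Dystroglycan, which binds laminin (Dag1, -0.56, adjusted p = 2.44e-04), fell. With THZ1 in constricted hearts 4 were higher and 4 lower, at a list median of 0.06, beside 15.1% higher and 14.2% lower of all genes tested. Sarcoglycan Sgca (0.47, adjusted p = 0.00140) and the laminin α5 receptor Bcam (0.33, adjusted p = 0.0157) were higher, and Itgb1 (-0.56, adjusted p = 1.98e-04), the collagen-binding integrin Itga1 (-0.56, adjusted p = 0.0110) and Sgcd (-0.56, adjusted p = 0.0213) were lower.

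**Figure D5:**
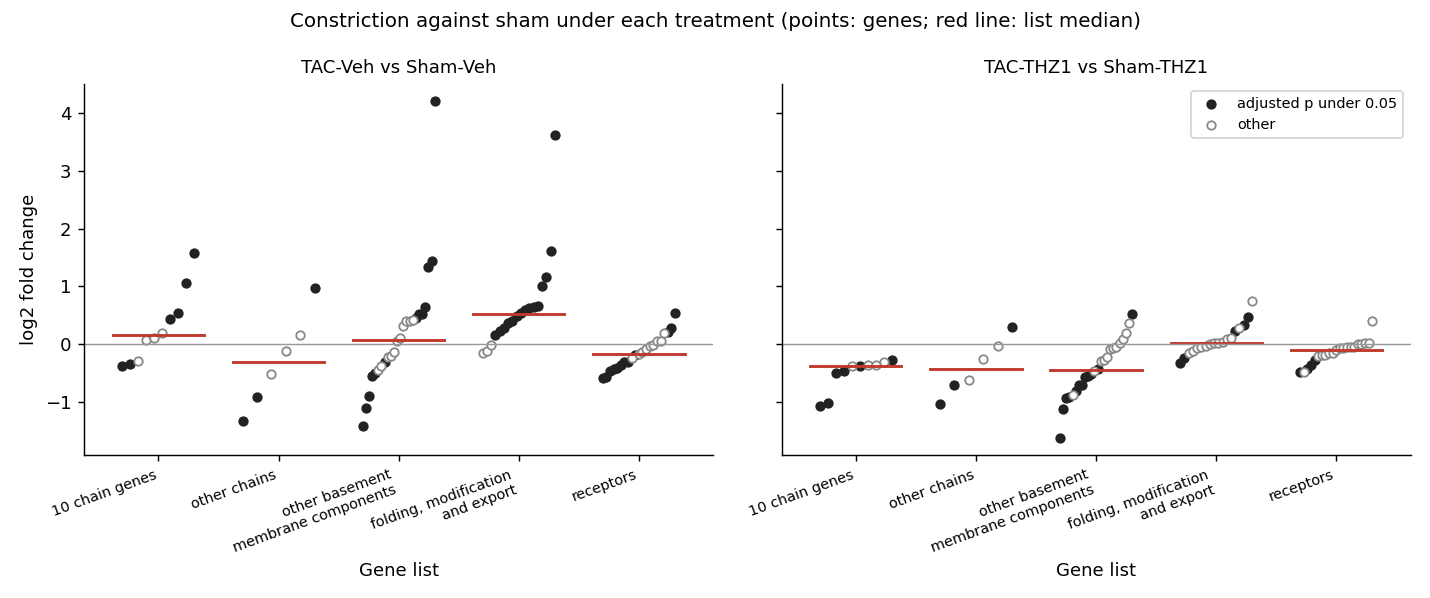
Log2 fold changes (y axis) of constriction against sham for the 10 chain genes and 4 lists of related genes (x axis), under vehicle (left) and under THZ1 (right). Each point is a gene, filled where the adjusted p was under 0.05, and red lines are list medians; the median of the 10 chain genes was 0.16 under vehicle and -0.37 under THZ1.

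Summed markers of several cell types also differed between the groups, not all in the same direction. The 8 fibroblast markers summed to 27841 to 30915 normalized counts in Sham-Veh and 27062 to 29616 in Sham-THZ1 hearts, against 52587 to 92940 in TAC-Veh hearts and 28685 to 40318 in TAC-THZ1 hearts. Of the 8, 5 were called higher with constriction and 6 lower with THZ1 in constricted hearts, where 21.4% and 14.2% of all genes tested were. Those called higher were Dcn, Lum, Col1a1, Col1a2 and Col3a1. Pdgfra (0.25, adjusted p = 0.0614), Tcf21 (0.38, adjusted p = 0.0727) and Ddr2 (0.12, adjusted p = 0.344) were not called with constriction. Dcn (mean 19904) and Col3a1 (mean 8472) weighed most in the fibroblast sum. The 6 activated fibroblast markers summed to 1834 to 2672 in Sham-Veh and 1814 to 2092 in Sham-THZ1 hearts, against 29607 to 94550 in TAC-Veh hearts and 3234 to 8917 in TAC-THZ1 hearts. Their sums in TAC-THZ1 were above both sham groups, while Col4a1 and Col4a2 were below both. The 8 endothelial markers summed to 21372 to 23467 in Sham-Veh and 23634 to 25354 in Sham-THZ1 hearts, against 19600 to 24487 in TAC-Veh hearts and 18386 to 19920 in TAC-THZ1 hearts. The TAC-THZ1 range lay below both sham ranges, and 5 of the 8 were called lower and 2 higher in TAC-THZ1 than in Sham-THZ1. Of all 13331 genes tested, 1706 were called lower and 1514 higher in this comparison. The 8 mural cell markers summed to 33206 to 35131 in Sham-Veh and 33213 to 33845 in Sham-THZ1 hearts, against 22074 to 30873 in TAC-Veh hearts and 24363 to 25211 in TAC-THZ1 hearts, both TAC ranges below both sham ranges. Rgs5 (mean 14873) and Abcc9 (mean 7122) weighed most in this sum. With constriction 4 of the 8 were called lower and 1, Tagln (0.80, adjusted p = 0.0168), was called higher, beside 23.6% and 21.4% of all genes tested. The other 3 were not called. The 8 cardiomyocyte markers summed to 1644100 to 1721800 in Sham-Veh and 1662800 to 1726800 in Sham-THZ1 hearts, against 950740 to 1368700 in TAC-Veh hearts and 1507200 to 1815800 in TAC-THZ1 hearts. No marker list had a gene at 0 in every library. The part of these cell types in the values of the 10 genes was not tested.

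The genes whose profile over the 16 libraries was closest to that of Col4a1 were found among 10307 genes by the root mean square difference of centred log2 values. Col4a2 was at 0.0822. Outside the 10, the nearest were Fam101b, which encodes a filamin-binding protein (0.173), the fibrillar collagen chain Col5a1 (0.210), Col15a1 (0.217), the latent TGF-β binding protein Ltbp4 (0.239) and Col18a1 (0.248), the last a basement membrane collagen. The genes nearest to Lamc1 were the myosin phosphatase subunit Ppp1r12a (0.0892), nidogen Nid1 (0.0992), which binds the laminin γ1 chain, Reep3 (0.105), integrin Itgav (0.107) and talin Tln1 (0.108). Lama2 was at 0.101 from Lamc1. Nid1 itself had log2 fold changes of 0.06 with constriction (adjusted p = 0.601) and -0.58 with THZ1 in constricted hearts (adjusted p = 2.54e-04), beside 0.11 and -0.54 for Lamc1. The points of these profiles share libraries and groups, so the distances are descriptions.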

How the data were processed

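RNA from ventricle pieces of 16 mice was made into stranded mRNA libraries and read as 40-base single-end reads. Per the study, the authors aligned the reads to mm9 with TopHat2 2.1.1, counted them per GENCODE gene by strand with HTSeq and divided the counts by DESeq2 size factors, so the deposited values are a signal in normalized counts. Dividing each library by its smallest step gave whole reads for 100% of values, within 0.001. In TAC-Veh replicate 3 and TAC-THZ1 replicate 4 that step lay near 1, so the recovery could not be checked separately there, and their reads were used all the same. These reads were used for depth and for DESeq2 1.42.0 and edgeR 4.0.16 as alternatives. Replicates differed beyond counting noise, with a chi-square per degree of freedom of 3.06 to 98.3. The replicates were different mice, and this spread may be technical or biological. It cannot by itself exclude a repeat library of the same heart.

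Normalized counts plus 1 were log2-transformed and tested with limma 3.58.1 (R 4.3.3), fitting the 4 group means to all 16 libraries with no covariates and a variance trend. Genes needed at least 10 normalized counts in at least 4 libraries (13331 of 22372), and p-values were adjusted over all of them by the Benjamini-Hochberg method. Fold changes of low genes are understated by the added 1. The procedure was tested on simulated data with 200 changed genes. There only TAC-Veh was changed and each gene had the same spread in all groups, so the unequal spread of the real groups was not tested. Ratios were compared with exact two-sided permutation tests. The 10 genes and the lists were chosen with earlier results of these data known. All 10 were named, and from each list up to 3 called genes with the largest change in each direction for TAC-Veh against Sham-Veh and TAC-THZ1 against TAC-Veh, plus the gene with the highest mean. Some genes that this rule names are not reported here. The 5 genes nearest to Col4a1 and to Lamc1 were taken among those whose mean was 100 normalized counts or more. Promoters were RefSeq windows of GRCm38.p6. Gene positions and exon lengths came from the GENCODE annotation on mm9 (NCBIM37). Replicate numbers did not pair the mice, and the labels gave no batch.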

Additional observations from a re-analysis of the deposited data

Results flagged for a closer look

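In the Sham-THZ1 group, replicate 4 stood far above the other 3 mice for Col4a1, at 15353 normalized counts against 12222 to 12406, and for Col4a2, at 11845 against 10007 to 10175. The gap to the nearest mouse was 0.941 and 0.909 of the range of the group. Of 40 groups of 4 values examined, about 1 in 20 would be marked by chance, and these 2 values come from the same mouse. Without this mouse the interaction stayed called for both genes.

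The THZ1 effect differed between constricted and sham hearts by the interaction test for 5 genes. The log2 difference, as the effect in constricted minus the effect in sham hearts, was -1.62 for Col4a1, -1.44 for Col4a2, -1.95 for Col4a3, -1.41 for Col4a4 and -0.48 for Lamc1.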

How the results depend on the processing

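The number of chain genes called kept its side and stayed within 1.5 times under other pseudocounts, filters and scalings, robust or weighted fits, and DESeq2 or edgeR on the recovered reads, and without each library (TAC-Veh against Sham-Veh 4 to 8, TAC-THZ1 against TAC-Veh 7 to 8, Sham-THZ1 against Sham-Veh 0, TAC-THZ1 against Sham-THZ1 5 to 9, interaction 4 to 7). The exceptions came with fitting the 2 groups alone and with fold thresholds. Fitting the 2 groups alone called 3 genes (2 higher, 1 lower) for TAC-Veh against Sham-Veh and 1 for THZ1 in sham hearts. The study's fold thresholds left 2 genes for TAC-Veh against Sham-Veh and 4 for TAC-THZ1 against TAC-Veh. The study set none for TAC-THZ1 against Sham-THZ1, where a log2 threshold of 1 was applied here and left 2. Leaving out 1 library turned the sign only of values that were not called. Their log2 ranges were -0.21 to 0.0064 (Lamb1) and -0.089 to 0.087 (Lamb2) for TAC-THZ1 against TAC-Veh, -0.045 to 0.0020 (Lamb1) for THZ1 in sham hearts, -0.24 to 0.047 (Lama4) and -0.19 to 0.025 (Lamb1) for the interaction, and -0.020 to 0.070 for the Lamb1 to Lamb2 ratio with constriction. Same-numbered replicates did not deviate together (24 pairs, r from -0.43 to 0.16, 2 of 16 libraries closest to their own number), and with the replicate block the counts of chain genes called were again 6, 7, 0, 6 and 5. Over all genes, fitting 2 groups alone called 1399 against 3918 for TAC-THZ1 against TAC-Veh and 465 against 9 for THZ1 in sham hearts, and array weights called 2412 for the former, 513 for the latter and 5011 against 3220 for TAC-THZ1 against Sham-THZ1, while DESeq2 called 33 in sham hearts. The cause of these differences was not tested. The 4 TAC-Veh mice had the largest spread of the chain genes, with a median SD of 0.33 on the log2 scale, and both Col4a1 and Col4a2 lost their call with constriction when these 2 groups were fitted alone.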
